A study of Mus musculus with 9 samples.

Results

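The motile cilia and ependymal genes are those whose symbols name parts of the beating cilium or the cells that carry it: the axonemal dyneins, tektins, radial spoke proteins, dynein regulatory complex, Spag and Cfap families, and single genes such as Foxj1, Ccdc39, Ccdc153, Tmem212, Stoml3, Mlf1 and Lrrc43. Of 68 such symbols in the authors' table, 61 reached 0.5 in at least 3 of the 9 libraries and are the members described here, out of 14831 genes listed and 14430 tested. Their values are RPKM, which divides reads by the transcript's length and the library's depth, and any value under 0.5 stood at 0.1 in the deposited table. The rule itself uses symbols and this minimum, and no difference between groups. Stoml3 and Lrrc43, which it names singly, met the minimum only through their saline and C9orf72 ASO libraries. It was set, however, with earlier results of these data known. A further 26 symbols of the reference gene list fit the rule and were not analysed here, among them Hydin, Spag6, Spag16, Spag17 and Dnah11.

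The mice were wild-type C57Bl/6 females, 10 weeks old, and RNA came from their spinal cords; 1 of the control ASO samples has no strain in its labels. Each mouse received 10 µl into the right lateral ventricle, a fluid space of the brain, and tissue was taken 2 weeks afterwards. The injection held saline (3 libraries), 500 µg of a control antisense oligonucleotide (ASO #456835, 3 libraries) or 500 µg of an ASO against mouse C9orf72 (#571883, 3 libraries). An ASO is a short modified nucleic acid that pairs with its target RNA and lowers it, so that the design asks what follows in the cord when C9orf72 RNA is reduced. Whether each library stands for its own mouse is not said in the labels, and p-values measure only the spread between these libraries. Replicates are numbered here by the order of the samples within each group. C9orf72 itself stood at 11.1 ± 0.537 RPKM in saline, 11.2 ± 0.549 in control ASO and 3.07 ± 0.359 in C9orf72 ASO libraries (SD, n = 3 each). Depth, estimated by a fit to the steps between low values, was 90.3 to 124.0 M reads per library, and 0.5 RPKM stood for 45.2 to 62.0 reads per kilobase.

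A motile cilium beats because dynein motors, fixed in rows along paired microtubules, slide neighbouring pairs past each other. Radial spokes, the central pair of microtubules and the nexin-dynein regulatory complex time this sliding and turn it into a bend. In the spinal cord the cells that carry such cilia are the ependymal cells lining the central canal, where the cilia move cerebrospinal fluid. Forkhead factor FOXJ1 and the RFX factors, which bind X-box sequences built on the core GTTGCC, switch on the genes of the motile axoneme. Mutations of many of these genes cause primary ciliary dyskinesia.

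Levels of the members were low and spread widely. The median of their mean levels over the 9 libraries was 1.73 RPKM, against 7.96 RPKM for all genes tested; 18 members averaged under 1 RPKM, 34 between 1 and 10, and 9 at 10 or more. In 50 members all 9 libraries were at 0.5 or above, and 11 had at least 1 library at 0.1. The 4 highest were Spag9 (73.1 RPKM), Cfap36 (66.6), Spag7 (26.8) and Rsph3b (21.9), and the 2 lowest Tekt4 (0.326) and Cfap53 (0.396), as means over 9 libraries. Spag9, a scaffold of kinase signalling, and Spag5, a protein of the mitotic spindle, carry the Spag name without being axonemal, and Spag4 and Spag7 were set apart with them; the other 57 members were given axonemal or ependymal roles. Rsph3a and Rsph3b are near-identical copies whose reads the authors' counting could have split between them: Rsph3a stood at 0.490 times Rsph3b on average (0.481 to 0.499 in the 9 libraries). The same uncertainty holds for Dnah7b and Spag6l, which have close paralogs.

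**Figure D1:**
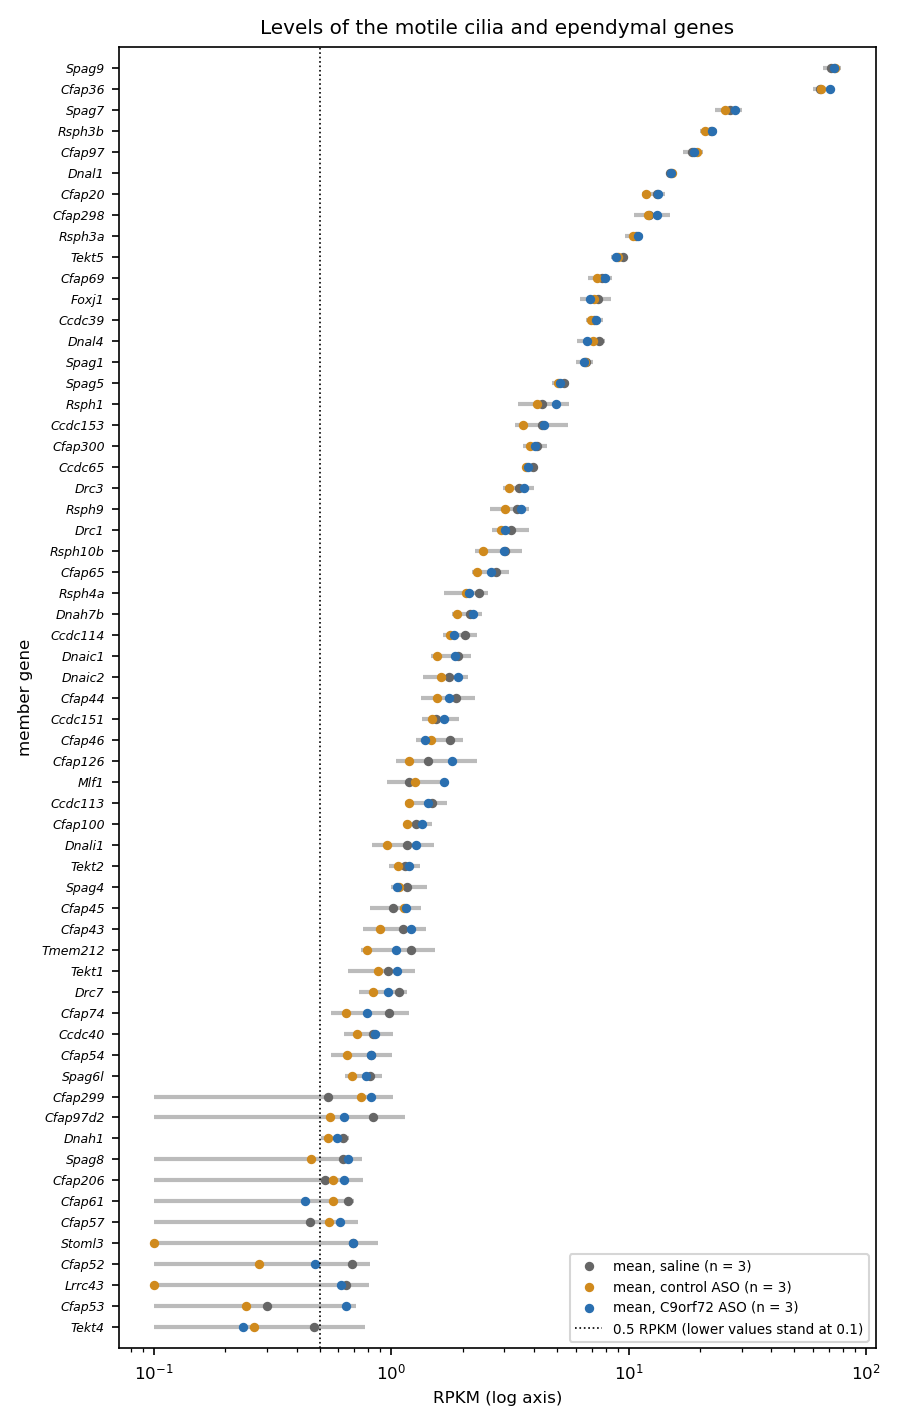
RPKM on a log axis for each of the 61 members, in order of mean level; points are the means of 3 libraries in each group, grey bars run from the lowest to the highest of the 9 libraries, and the dotted line marks 0.5 RPKM. Most members lie between 0.5 and 10 RPKM, and Stoml3 and Lrrc43 have their control ASO mean at 0.1.

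At the edge of the minimum, Tekt4, a tektin of the cilium's doublet microtubules, was kept with 4 libraries at 0.5 or above. It stood at 0.549, 0.1 and 0.773 in saline, at 0.1, 0.595 and 0.1 in control ASO, and at 0.1, 0.513 and 0.1 in C9orf72 ASO libraries. Cfap157 reached 0.5 in 2 libraries and was left out, with 0.503 in saline replicate 1 and 0.53 in C9orf72 ASO replicate 1. Cfap161 and Dnah6 were also at 0.5 or above in 2 libraries, and Dnah2, Dnah5, Dnah9 and Spag17os in 1. The heavy chains Dnah5 and Dnah9, the outer-arm motors, are thus among the genes too low to be members.

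The label was checked against markers of ependyma. All 8 listed were tested (Foxj1, Ccdc153, Tmem212, Rarres2, Dynlrb2, Enkur, Sox2 and Cd24a, of which the first 3 are members), and their summed level was 85.2 to 99.3 RPKM in saline, 86.2 to 90.8 in control ASO and 88.7 to 99.1 in C9orf72 ASO libraries. Most of that sum was Cd24a (42.2 to 51.4 over the 9 libraries) and Sox2 (19.01 to 23.1). Gene by gene, 6 of the 8 markers had a fold change above 0 in C9orf72 ASO against control ASO (median log2 fold change 0.25). In control ASO against saline 1 of 8 did (-0.10). Of the 5 that are not members, 4 and 1 did (medians 0.22 and -0.04). Among these 5, Dynlrb2 and Enkur also count below as axonemal genes outside the rule, so they give no check apart from the axoneme. Choroid plexus, the other ciliated tissue of the ventricles, had 5 tested genes of 20 listed; 13 of the 20, Ttr among them, were not analysed here. Of the 5, Enpp2, which oligodendrocytes also make, was at 181 to 196 RPKM over the 9 libraries, and Kl, Prlr, Msx1 and Col8a1 lay between 0.529 and 2.19. The level of choroid plexus is thus not shown by these genes. Of 12 testis genes listed, which share the axoneme through the sperm tail, 1 was tested. In whole tissue, fewer ependymal cells and less RNA per cell cannot be told apart, and which cells made the RNA of each member was not measured.

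The 51 members with a promoter in the RefSeq table (build GRCm38.p6, 250 bases before to 50 after the start of the gene) were searched for the RFX core GTTGCC and for the forkhead sequence TGTTTAC, both on either strand. Where the table gives a gene several starts (5 of the 51 members and 4163 of all 27025 genes), a match in any window counts, and numbers of matches are those of the richest single window. The RFX core was found in 21 of 51 (41.2%, Wilson 95% interval 28.8 to 54.8), in 14.1% of all 27025 genes of the table and in 15.1% of the 10782 that were tested here. At least 2 such matches were found in 9.80% of member promoters and in 1.17% of all; Cfap298 held 4, and Cfap74, Cfap44, Tekt1 and Tekt2 held 2 each in 1 window, with 2 windows searched for Cfap74 and Tekt1 and 3 for Tekt2. TGTTTAC was found in 4 of 51 (7.84%, Wilson 95% interval 3.09 to 18.5), in 4.05% of all promoters and in 3.10% of those of genes tested. That interval includes both of these shares. Member promoters averaged 56.3% G and C, all promoters 53.6% and those of tested genes 61.0%. A match describes letters in a window, and binding was not measured. Foxj1 is not in the promoter table.

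Shown are the 250 bases before the start of the 3 members that had the smallest p values against the control ASO among those with an RFX core in that stretch. Lrrc43 is at chr5:123489075-123489324 (plus strand), Mlf1 at chr3:67373847-67374096 (plus strand) and Cfap20 at chr8:95434870-95435119 (minus strand), all in GRCm38.p6. Capitals mark the matches to GTTGCC or TGTTTAC, which appear as GGCAAC and GTAAACA where the match is on the opposite strand.
Lrrc43: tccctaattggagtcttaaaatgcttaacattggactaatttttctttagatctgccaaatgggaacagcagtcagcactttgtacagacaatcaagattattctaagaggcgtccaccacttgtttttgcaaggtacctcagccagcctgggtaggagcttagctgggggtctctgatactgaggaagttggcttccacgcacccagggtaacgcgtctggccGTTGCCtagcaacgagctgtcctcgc
Mlf1: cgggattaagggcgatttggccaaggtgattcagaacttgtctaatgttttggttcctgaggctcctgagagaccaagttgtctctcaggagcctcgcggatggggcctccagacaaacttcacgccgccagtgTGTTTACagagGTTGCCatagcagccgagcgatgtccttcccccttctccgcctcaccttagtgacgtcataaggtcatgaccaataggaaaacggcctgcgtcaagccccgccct
Cfap20: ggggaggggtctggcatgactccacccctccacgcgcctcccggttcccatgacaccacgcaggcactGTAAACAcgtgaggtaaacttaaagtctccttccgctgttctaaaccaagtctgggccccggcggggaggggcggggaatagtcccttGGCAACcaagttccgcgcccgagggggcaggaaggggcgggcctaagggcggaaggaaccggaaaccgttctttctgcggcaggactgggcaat
In Lrrc43 the RFX core began 26 bases before the start. Mlf1 had its RFX core 105 bases and its forkhead match 116 bases before the start, close together. In Cfap20 both matches were on the opposite strand, 94 and 182 bases before the start.

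Libraries differed in the level of the whole group. For each gene, log2(RPKM + 0.1) was set against the gene's mean over 9 libraries, and the median over the 61 members was 0.24, -0.05 and 0.03 in saline replicates 1 to 3, -0.04, -0.07 and -0.11 in control ASO, and 0.11, 0.05 and 0.03 in C9orf72 ASO libraries. The median over all genes tested lay between -0.02 and 0.04 in these libraries. Saline replicate 1 stood apart: 57 of 61 members were above their own mean in it, and 32 members (52.5%) had their highest value there, against 23.8% of all genes tested. In the same library Mbp of oligodendrocytes was at 2799 RPKM (1948 to 2313 in the other 8) and Gfap of astrocytes at 858 (634 to 783); their part in the level of the members was not tested.

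Control ASO libraries were seldom the highest, and low values were found in saline replicate 2 as well. Of the 50 members at 0.5 or above in all libraries, 12 had their lowest value in saline replicate 2, 12 each in control ASO replicates 2 and 3, and 3 in control ASO replicate 1. None of the 61 members had its highest library among the 3 of the control ASO, where 25.3% of all genes tested did. The control ASO group had the lowest mean in 44 of 61 members (72.1%, against 33.9% of all genes tested), saline in 9 and C9orf72 ASO in 8. Without saline replicate 1, a comparison added after the data had been seen, the control ASO mean was lowest in 34 (55.7%, against 30.5%), and 3 members (4.92%, against 31.3%) had their highest library in that group. In 6 members all 3 control ASO libraries lay under the other 6 libraries (9.84%, against 1.49% of all genes tested): Stoml3, Lrrc43, Cfap74, Dnaic1, Dnah7b and Rsph10b. The last pair falls outside the rule for naming genes and was named after its values were seen. Stoml3 and Lrrc43 met the minimum only through the saline and C9orf72 ASO libraries, so their place in this count gives no support of its own.

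**Figure D2:**
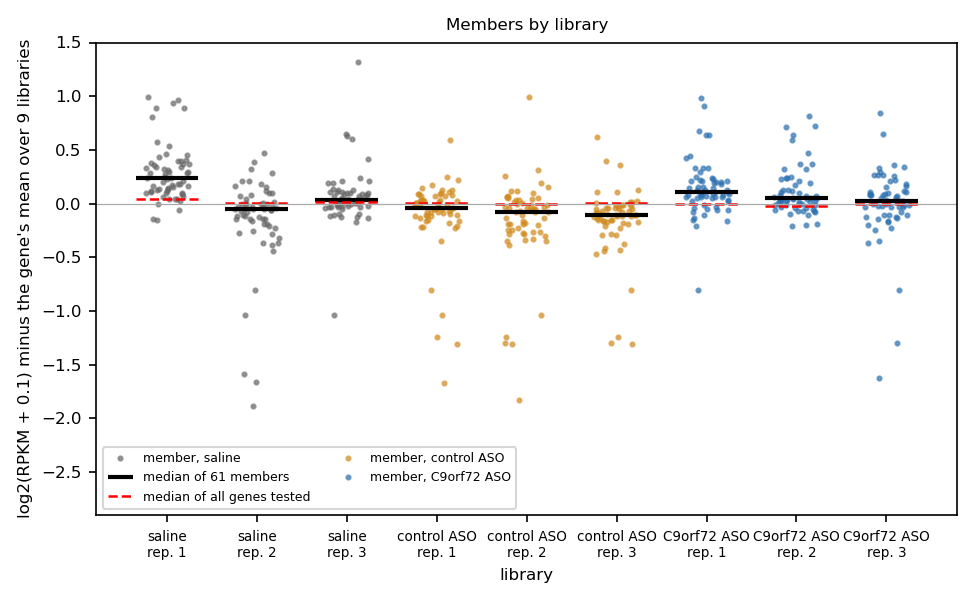
Each point is a member in a library, as log2(RPKM + 0.1) minus that gene's mean over 9 libraries (vertical axis); black bars are medians over the 61 members and red dashed bars medians over all genes tested. The black bar is at 0.24 in saline replicate 1 and between -0.11 and -0.04 in the control ASO libraries.

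Foxj1 (ENSMUSG00000034227), the forkhead factor that starts the motile cilia programme, did not separate the groups. It was at 8.44, 6.88 and 7.04 RPKM in saline, 7.52, 6.85 and 7.09 in control ASO, and 6.49, 6.27 and 7.95 in C9orf72 ASO libraries. The groups overlapped, with a log2 fold change of -0.06 (SE 0.10) between C9orf72 ASO and control ASO (limma, adjusted p = 0.812).

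The 2 members with the smallest p values against the control ASO had been placed by hand among other cilia and ependymal genes. Stoml3 (ENSMUSG00000027744), a stomatin-domain membrane protein, was at 0.883, 0.519 and 0.666 RPKM in saline, at 0.1 in all 3 control ASO libraries, and at 0.827, 0.712 and 0.535 in C9orf72 ASO libraries. Lrrc43 (ENSMUSG00000063409), a leucine-rich repeat protein whose promoter is shown above, was at 0.806, 0.518 and 0.618 in saline, at 0.1 in all 3 control ASO libraries, and at 0.655, 0.556 and 0.642 in C9orf72 ASO libraries. In both genes each saline and C9orf72 ASO library cleared 0.5 by less than 0.4 RPKM while every control ASO library was under it, so the control level is known only as below 0.5. Stoml3 was at least 1.38-fold higher in C9orf72 ASO than in control ASO libraries and Lrrc43 at least 1.23-fold, counting the controls as 0.5. Neither passed the threshold: the limma adjusted p was 0.0512 for Stoml3 and 0.0681 for Lrrc43 against the control ASO, and 0.132 for each in control ASO against saline. A group with all libraries at 0.1 adds no spread to the fit, so these p values may be too small. With values under 0.5 raised to 0.5, the adjusted p of Stoml3 was 0.344 against the control ASO and 0.796 between control ASO and saline.

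Ccdc153 (ENSMUSG00000070306), an ependymal marker, was at 5.58, 3.32 and 4.07 RPKM in saline, 3.6, 3.31 and 3.9 in control ASO, and 4.76, 4.03 and 4.41 in C9orf72 ASO libraries. The C9orf72 ASO libraries lay above the control ASO ones without overlap, while saline spanned both. Tmem212 (ENSMUSG00000043164), a membrane protein of ciliated cells, was at 1.53, 1.07 and 1.05 in saline, 0.759, 0.879 and 0.743 in control ASO, and 0.846, 1.08 and 1.22 in C9orf72 ASO libraries. Here the control ASO libraries were all under the saline ones and overlapped the C9orf72 ASO ones. Mlf1 (ENSMUSG00000048416), a gene of multiciliated cells also known from myeloid leukaemia, was at 1.42, 0.965 and 1.18 in saline, 1.15, 1.55 and 1.08 in control ASO, and 1.72, 1.7 and 1.59 in C9orf72 ASO libraries. Its 3 C9orf72 ASO values exceeded all 6 others. Mlf1 had a log2 fold change of 0.40 (SE 0.15, limma adjusted p = 0.301) against the control ASO and 0.47 (SE 0.15, adjusted p = 0.243) against saline.

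**Figure D3:**
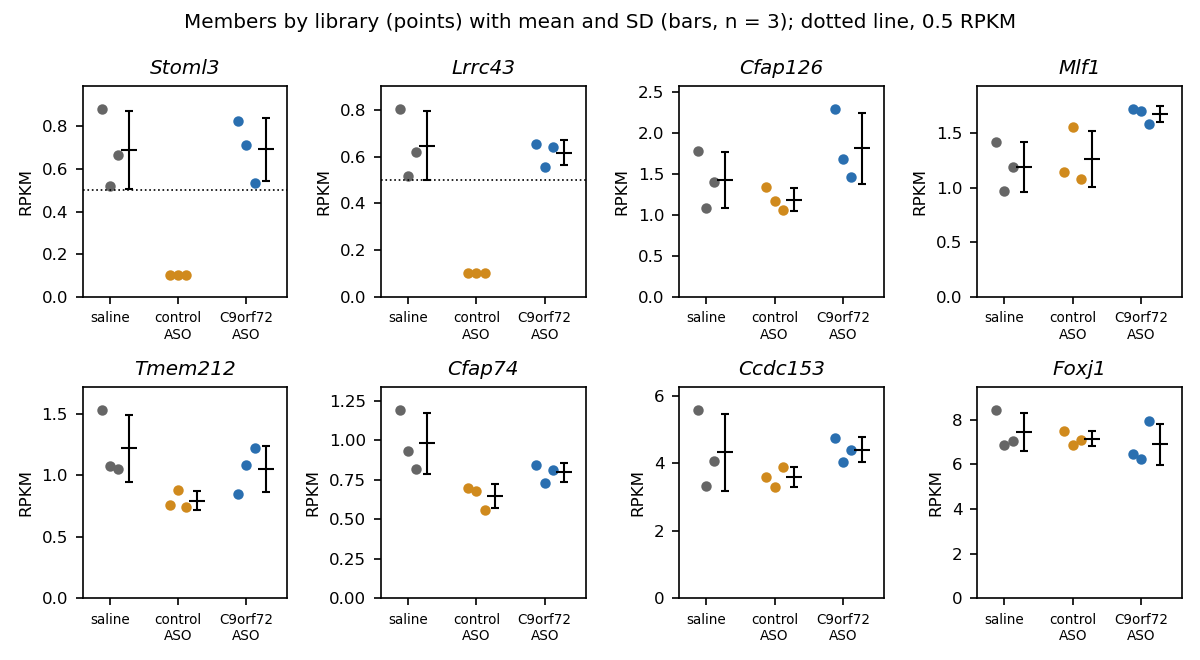
RPKM of 8 members by library (points), with mean and SD bars of each group (n = 3, no bar where all libraries are at 0.1); dotted lines mark 0.5 RPKM. Stoml3 and Lrrc43 are at 0.1 in every control ASO library, Mlf1 is highest in the C9orf72 ASO libraries, and Foxj1 overlaps between groups.

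Dynein genes showed small differences. Dnaic1 (ENSMUSG00000061322), an intermediate chain of the outer arm, was at 2.17, 1.72 and 1.82 RPKM in saline, 1.67, 1.48 and 1.54 in control ASO, and 1.93, 1.84 and 1.8 in C9orf72 ASO libraries. All 3 control ASO values were under the other 6, with a log2 fold change of 0.24 (SE 0.10) for C9orf72 ASO against control ASO (limma adjusted p = 0.324). Its partner Dnaic2 (ENSMUSG00000034706) was at 1.96, 1.68 and 1.61 in saline, 1.93, 1.36 and 1.59 in control ASO, and 2.1, 1.78 and 1.87 in C9orf72 ASO libraries, and all groups overlapped. Dnali1 (ENSMUSG00000042707), a light chain of the inner arm, was at 1.51, 0.907 and 1.08 in saline, 1.18, 0.828 and 0.891 in control ASO, and 1.3, 1.33 and 1.18 in C9orf72 ASO libraries. The highest control ASO and the lowest C9orf72 ASO library both came to 1.18, with no overlap. Cfap53 (ENSMUSG00000035394), which helps dock the outer arm, was under 0.5 in 2 saline and 2 control ASO libraries (0.702 and 0.532 in the others) and at 0.713, 0.579 and 0.637 in C9orf72 ASO libraries.

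Spoke, regulatory and ruler genes followed the same order of groups only in part. Rsph1 (ENSMUSG00000024033), of the radial spoke head, was at 5.22, 3.41 and 4.34 RPKM in saline, 4.37, 3.65 and 4.31 in control ASO, and 4.73, 4.56 and 5.6 in C9orf72 ASO libraries. Its C9orf72 ASO libraries were all above the control ASO ones and overlapped saline. Rsph4a (ENSMUSG00000039552), another spoke head protein, was at 2.55, 2.01 and 2.48 in saline, 2.4, 1.8 and 2.0 in control ASO, and 2.25, 2.48 and 1.68 in C9orf72 ASO libraries. Its groups overlapped throughout. Rsph3b, a spoke stalk protein, was at 23.7, 19.99 and 23.04 in saline, 21.9, 20.8 and 20.4 in control ASO, and 22.3, 21.8 and 23.2 in C9orf72 ASO libraries.

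Drc1 (ENSMUSG00000073102), a scaffold of the nexin-dynein regulatory complex, was at 3.82, 2.73 and 3.07 RPKM in saline, 3.21, 2.65 and 2.85 in control ASO, and 3.21, 3.14 and 2.68 in C9orf72 ASO libraries. Ccdc39 (ENSMUSG00000027676) and Ccdc40 (ENSMUSG00000039963) together form the ruler that sets the spacing along the doublets. Ccdc39 was at 7.83, 6.74 and 6.97 in saline, 6.62, 7.4 and 6.76 in control ASO, and 7.42, 7.37 and 7.11 in C9orf72 ASO libraries. Ccdc40 was at 1.02, 0.762 and 0.731 in saline, 0.878, 0.645 and 0.635 in control ASO, and 0.92, 0.912 and 0.734 in C9orf72 ASO libraries. In all 3 genes the groups overlapped, and Ccdc39 was the more abundant partner in every library on this per-length scale.

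Among genes of the central pair and the doublet wall, Cfap74 (ENSMUSG00000078490), a central pair protein, was at 1.19, 0.929 and 0.818 RPKM in saline, 0.699, 0.679 and 0.559 in control ASO, and 0.843, 0.73 and 0.812 in C9orf72 ASO libraries. Its control ASO libraries were under all others. Cfap46 (ENSMUSG00000049571), also of the central pair, was at 2.0, 1.55 and 1.76 in saline, 1.74, 1.3 and 1.4 in control ASO, and 1.37, 1.53 and 1.28 in C9orf72 ASO libraries, with the C9orf72 ASO libraries under the saline ones. Cfap126 (ENSMUSG00000026649), a doublet protein also called Flattop, was at 1.78, 1.09 and 1.4 in saline, 1.34, 1.16 and 1.05 in control ASO, and 2.29, 1.68 and 1.46 in C9orf72 ASO libraries. The C9orf72 ASO libraries were above the control ASO ones, and saline overlapped both. Tekt1 (ENSMUSG00000020799), a tektin, was at 1.26, 0.784 and 0.858 in saline, 0.945, 1.05 and 0.659 in control ASO, and 1.22, 0.945 and 0.997 in C9orf72 ASO libraries.

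Among abundant members the differences were small. Cfap36 (ENSMUSG00000020462), a binding partner of the ciliary GTPase ARL3, was at 66.4, 60.02 and 66.1 RPKM in saline, 64.3, 67.3 and 62.7 in control ASO, and 71.2, 71.03 and 70.1 in C9orf72 ASO libraries, each of the last above the 6 others. Its log2 fold change was 0.13 (SE 0.06, limma adjusted p = 0.359) against the control ASO and 0.14 (SE 0.06, adjusted p = 0.32) against saline. Spag9 was at 65.9, 76.7 and 71.1 in saline, 76.9, 75.9 and 70.4 in control ASO, and 78.6, 75.3 and 67.0 in C9orf72 ASO libraries. Spag7 was at 29.9, 23.1 and 27.1, at 24.9, 25.4 and 26.5, and at 28.2, 25.96 and 29.99, and Spag5 at 5.34, 5.05 and 5.64, at 4.79, 5.54 and 4.79, and at 5.51, 5.2 and 4.74 in the same order of groups. Spag9, Spag7 and Spag5 overlapped between saline and control ASO and between saline and C9orf72 ASO.

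C9orf72 ASO against control ASO is the comparison of the target with a control oligonucleotide. No member passed the threshold of a Benjamini-Hochberg adjusted p under 0.05, where 0.0693% of all genes tested did. At an unadjusted limma p under 0.05, 9 members were higher in C9orf72 ASO libraries and 0 lower, against 6.39% higher and 7.71% lower among all genes tested; these were Stoml3, Lrrc43, Cfap126, Mlf1, Cfap43, Rsph10b, Cfap20, Dnaic1 and Dnah7b. In 17 members the libraries did not overlap with C9orf72 ASO higher and in 0 with it lower, against 10.1% and 11.8% of all genes. Both counts of higher members include Stoml3 and Lrrc43, which met the minimum only through saline and C9orf72 ASO libraries. Among the 50 members at 0.5 or above in all libraries, 7 were higher and 0 lower at an unadjusted limma p under 0.05. In 14 of these 50 the libraries did not overlap with C9orf72 ASO higher, and in 0 with it lower. The fold change was above 0 in 50 of 61 members (82.0%, against 45.8% of all genes), with a median log2 fold change of 0.15 against -0.01 over all genes. Both Stoml3 and Lrrc43 at their bounds left that median at 0.15. After them, Cfap126 had 0.55 (SE 0.19, adjusted p = 0.266), the smallest p of the rest.

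By role, the 7 inner arm members and the 7 of the regulatory complex and ruler were all above 0, each set with a median of 0.19. The other cilia and ependymal genes had 9 of 11 above 0 and a median of 0.35, or 0.30 with Stoml3 and Lrrc43 at their bounds. Outer arm genes had 5 of 7 above 0 (median 0.15), central pair genes 5 of 6 (0.17), tektins and doublet proteins 6 of 8 (0.16), radial spoke genes 7 of 8 (0.10) and dynein assembly factors 2 of 3 (0.07). The 4 Spag genes outside motile cilia had 2 above 0 and a median of 0.01. Members below 0 were Cfap61, Dnal4, Foxj1, Cfap46, Cfap97, Dnal1, Tekt5, Spag9, Spag1, Spag4 and Tekt4. No role was tested against another.

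**Figure D4:**
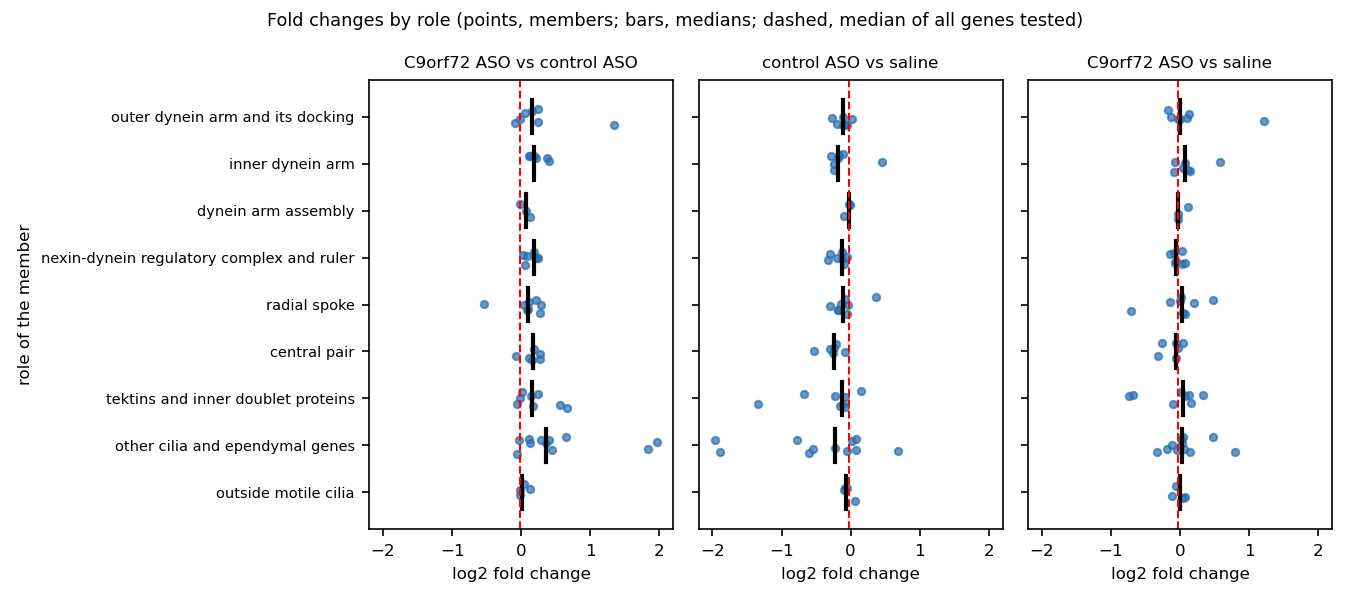
Log2 fold changes of the 61 members by role in the 3 comparisons; points are members, black bars medians of each role, and the red dashed line the median of all genes tested. Against the control ASO the role medians run from 0.01 to 0.35, between control ASO and saline from -0.25 to -0.02, and the points far from 0 include Stoml3 and Lrrc43, whose folds rest on libraries at 0.1.

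Control ASO against saline shows what the control oligonucleotide itself went with, and it shares the control ASO libraries with the comparison above. No member passed the adjusted threshold (0.00693% of all genes tested did). At an unadjusted p under 0.05, 0 members were higher and 8 lower in control ASO libraries, against 1.37% and 3.98% of all genes: Stoml3, Lrrc43, Tmem212, Cfap74, Dnaic1, Rsph10b, Cfap65 and Cfap52. Libraries did not overlap in 0 members with control ASO higher and in 9 with it lower, against 3.16% and 7.15%. Both counts of lower members include Stoml3 and Lrrc43, which met the minimum only through saline and C9orf72 ASO libraries. The fold change was below 0 in 52 of 61 members and above 0 in 9 (14.8%, against 42.5% of all genes), and the median was -0.13 against -0.02. Tmem212 had -0.54 (SE 0.18) and Cfap74 -0.52 (SE 0.18), each with an adjusted p of 0.794. Central pair genes had the lowest role median (-0.25, 0 of 6 above 0), and the regulatory complex and ruler had 0 of 7 above 0 (-0.13). These counts moved with single saline libraries. Without saline replicate 1, 20 of 61 were above 0 (32.8%, against 45.4% of all genes) with a median of -0.06, and without saline replicate 2, 4 were (6.56%, against 41.0%) with a median of -0.21.

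C9orf72 ASO against saline gave values on both sides of 0. No member passed the adjusted threshold, against 0.0693% of all genes. At an unadjusted p under 0.05, Mlf1 and Cfap36 were higher and Cfap46 lower, against 3.79% and 10.2% of all genes. Libraries did not overlap in 2 members with C9orf72 ASO higher and in 3 with it lower (Cfap46, Cfap61 and Tekt5), against 5.61% and 12.4%. Cfap46 had -0.32 (SE 0.13, limma adjusted p = 0.297). Cfap53 had 1.22 (SE 0.61, adjusted p = 0.398), with 2 saline libraries at 0.1. The fold change was above 0 in 33 of 61 members (54.1%, against 41.3% of all genes), with a median of 0.02 against -0.03. This excess rested on single libraries: without saline replicate 2, 20 of 61 were above 0 (32.8%, against 39.8%; median -0.046), and without C9orf72 ASO replicate 1, 24 were (39.3%, against 39.9%; median -0.03). The same comparison for Stoml3 and Lrrc43 set groups whose libraries were all above 0.5 and overlapped.

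Transcript length went with fold change over all genes, so the members were also set beside genes of their own length. Members had a median length of 3014 bases and all genes tested 4432 bases, and 22 of 61 members were in the shortest of 5 length classes of equal size. Against the control ASO the median of the members in classes 1 to 5 (1 the shortest) was 0.24, 0.12, 0.17, 0.06 and 0.12, while all genes had 0.08, 0.01, -0.02, -0.04 and -0.07. Between control ASO and saline the members had -0.13, -0.10, -0.11, -0.08 and -0.18, while all genes had -0.06, -0.04, -0.02, -0.01 and 0.02. In each class the members' median was on the same side of that of all genes, with fewer than 20 members in classes 2 to 5.

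**Figure D5:**
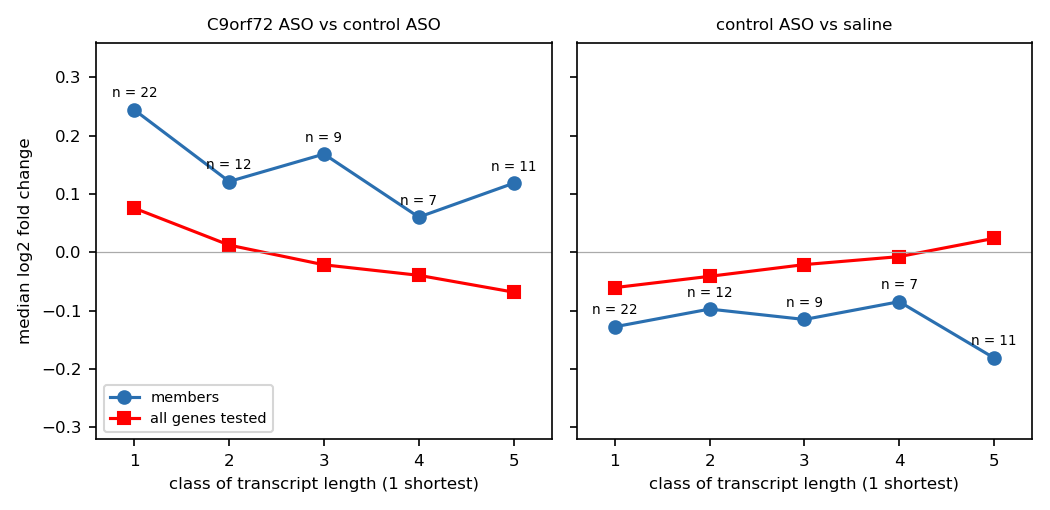
Median log2 fold change by class of transcript length (1 is the shortest), for members (circles, with their number) and all genes tested (squares). In C9orf72 ASO against control ASO the members are above all genes in every class, from 0.06 to 0.24, and in control ASO against saline below them, from -0.18 to -0.08.

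Axonemal genes whose symbols lie outside the rule were listed separately, and their counts were not tested against those of the members. Of 64 listed, 38 were tested; against the control ASO 32 of 38 were above 0 (84.2%, against 45.8% of all genes; median 0.10), 8 were higher and 0 lower at an unadjusted p under 0.05 (6.39% and 7.71% of all genes), and 0 passed the adjusted threshold. Between control ASO and saline 8 of 38 were above 0 (21.1%, against 42.5%; median -0.10), with 4 lower unadjusted (3.98% of all genes), and against saline 20 of 38 C9orf72 ASO fold changes were above 0 (52.6%, against 41.3%; median 0.04). Nme9, a thioredoxin-domain protein of cilia, was at 0.614, 0.1 and 0.519 RPKM in saline, at 0.1 in all control ASO libraries, and at 0.631, 0.517 and 0.601 in C9orf72 ASO libraries. Its pattern resembles that of Stoml3 and Lrrc43, with an adjusted p of 0.237 against the control ASO in limma. Nme9 too met the minimum only through saline and C9orf72 ASO libraries. Dynlrb2, a dynein light chain of ciliated cells, was at 3.11, 1.80 and 2.61 in saline, 1.72, 1.30 and 1.82 in control ASO, and 2.66, 1.71 and 2.27 in C9orf72 ASO libraries. The lists were drawn up with earlier results of these libraries known, and Nme9 and Dynlrb2 were named after their values were seen.

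Gene groups next to the motile axoneme had medians between -0.06 and 0.07. Intraflagellar transport and BBSome genes, which build and maintain motile and sensory cilia alike, had 27 of 39 above 0 against the control ASO (69.2%, against 45.8% of all genes; median 0.04), 18 of 39 between control ASO and saline (46.2%, against 42.5%; -0.01) and 28 of 39 in C9orf72 ASO against saline (71.8%, against 41.3%; 0.03). Genes listed as ependymal and not axonemal had 10 of 19 above 0 against the control ASO (median 0.02), where 45.8% of all genes were. Between control ASO and saline 9 of 19 were above 0 (median -0.01), where 42.5% of all genes were. This list holds Aqp4 and Gja1, which are also among the astrocyte markers used here, so it does not stand for ependymal cells alone. It also holds Fam183b, a gene of the ciliary axoneme, so it is not free of axonemal genes. Transcription factors of multiciliated cells had 3 of 9 above 0 in both comparisons (45.8% and 42.5% of all genes), with medians of -0.06 and -0.05. Choroid plexus genes had 2 of 5 above 0 (-0.01) and 3 of 5 (0.07). No gene of these lists passed the adjusted threshold in either comparison.

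Marker sums of some other cells also differed between groups. Microglial markers (4 genes) summed to 60.02 to 72.3 RPKM in saline, 64.7 to 69.5 in control ASO and 75.4 to 82.8 in C9orf72 ASO libraries. C1qa (22.9 to 41.5 over the 9 libraries) made the largest part of that sum. Each C9orf72 ASO library was above all others for C1qa and P2ry12, while Cx3cr1 (11.9 to 16.3) and Csf1r (10.6 to 12.2) overlapped between groups. Endothelial markers (3 genes) summed to 21.9 to 27.8 in saline, 14.7 to 21.7 in control ASO and 13.7 to 17.0 in C9orf72 ASO libraries. Astrocyte markers (7 genes) overlapped, at 1645 to 1815, 1692 to 1751 and 1689 to 1790. Meningeal and fibroblast markers (6 genes) summed to 15.3 to 16.0 in saline, 10.9 to 15.5 in control ASO and 10.3 to 13.3 in C9orf72 ASO libraries, and the 5 tested had fold changes below 0 in all 3 comparisons. Neuron markers (4 genes; 1694 to 1782, 1714 to 1982 and 1562 to 1848), oligodendrocyte markers (4 genes; 5364 to 6344, 5239 to 5493 and 4966 to 5667) and markers of neurons contacting the cerebrospinal fluid (3 genes; 5.99 to 7.60, 5.17 to 6.77 and 5.55 to 6.45) overlapped between the groups. The part of these cells in the values of the members was not tested.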

How the data were processed

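RNA of 9 mouse spinal cord libraries was analysed from 1 table. Trizol was used to isolate total RNA for strand-specific libraries, per the labels' protocols. The tools listed are cutadapt 1.2.1 and GSNAP, with build mm9, per the submitters' processing notes; counter, annotation and use of strand were not given in the sources used here. Deposited values were read as RPKM computed by the authors, and no unit stands in the header. At the depth that fitted each library best, 55.6% to 74.7% of low values of single-exon genes up to 350 bases fell within 0.1 of a whole read. The depth was fitted to these same values, which raises that share. Each library had 434 to 640 values at 0.1.

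Genes at 0.5 or more in at least 3 libraries were tested on log2(RPKM + 0.1) with limma 3.58.1 (mean trend, robust; R 4.3.3, statmod 1.5.0), in 1 fit of all 9 libraries, with Benjamini-Hochberg adjustment over 14430 genes. The pseudocount understates folds of low genes, and the floor at 0.1 overstates them. The script was tested on simulated data. Transcript lengths and symbols came from GENCODE M21, promoters from RefSeq.

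Members and lists were chosen with earlier results of these data known, and roles were assigned by hand after values were seen. Named with values in every library were a fixed set of ependymal and axonemal genes, the 4 highest and 2 lowest members, members past the threshold and the 4 smallest p values of each comparison. Dnai1 and Dnai2 of that set appear as Dnaic1 and Dnaic2. Alternatives covered the pseudocount, filter, scaling, length trend, moderation, groups in the fit and each library left out. Members at 0.5 in all libraries, axonemal and ependymal members alone, and the counts without saline replicate 1 were added after the data had been seen. All 9 per-sample columns were used.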

Additional observations from a re-analysis of the deposited data

How the results depend on the processing

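The median log2 fold change of the members kept its sign in C9orf72 ASO against control ASO (0.14 to 0.18 with each library left out, 0.10 to 0.16 otherwise) and in control ASO against saline (-0.21 to -0.06, and -0.14 to -0.08). In C9orf72 ASO against saline it ranged from -0.046 (without saline replicate 2) to 0.063 (without saline replicate 1) with a library left out, and was -0.03 without C9orf72 ASO replicate 1. Members past the adjusted threshold against the control ASO, 0 as reported, were 2 without trend and robust estimation (Stoml3 with an adjusted p of 0.00243, Lrrc43 with 4.1e-04), 2 without a filter (0.0183 each), 1 with libraries scaled to their median log ratio (Stoml3, 0.0451), 1 with the length trend removed (Stoml3, 0.0433) and 0 to 1 with a library left out (Stoml3, 0.0475 without C9orf72 ASO replicate 3). In control ASO against saline, 2 passed without trend and robust estimation and 2 without a filter (Stoml3 and Lrrc43, 0.0416 each). These calls rest on libraries at 0.1; the cause was not tested.

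As a mean in place of a median over members, the level was -0.16 in saline replicate 2, -0.11, -0.17 and -0.16 in the control ASO libraries, 0.11 in C9orf72 ASO replicate 2 and -0.0090 in replicate 3. The Foxj1 difference from the control ASO was 0.0064 without C9orf72 ASO replicate 2. Scaling to the median log ratio moved the share of all genes above 0 from 41.3% to 52.0% in C9orf72 ASO against saline (members 54.1% to 62.3%) and from 42.5% to 51.4% in control ASO against saline (members 14.8% to 18.0%). A filter at 1 RPKM left 45 members and dropped Stoml3 and Lrrc43. No paired analysis was possible because the labels give no replicate numbers, and those used here only follow the order of the samples. With 3 libraries a group and values under 0.5 RPKM replaced, small differences of low members were beyond what these data can show.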
